A study of Mus musculus with 8 samples.

Results

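Cadherins and protocadherins are the calcium-dependent adhesion proteins described here, across 8 RNA-seq libraries of mouse lung myofibroblasts. The members were taken by name: every row of the deposited count table whose mouse Ensembl ID carries a Cdh or Pcdh symbol followed by a number, or a symbol of the Pcdha, Pcdhb or Pcdhg gene clusters. This gave 93 genes of 43432 in the table, 35 outside the clusters and 58 within them (14 Pcdha, 22 Pcdhb and 22 Pcdhg). They lie on 11 chromosomes, 61 of them on chromosome 18, where the clusters stand. The rule used names alone, but it was set with earlier results of these data known.

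The 4 libraries labelled Fra-2 transgenic (Fra-2 transgenic 1 to 4) and the 4 wild-type control libraries (control 1 to 4) all came from lung myofibroblasts of C57BL/6 mice at postnatal day 7. Lung myofibroblasts are contractile cells of the mesenchyme that deposit elastin as alveolar walls form. Fra-2, the Fosl2 product, pairs with Jun proteins as an AP-1 transcription factor, and the series describes the transgenic cells as expressing it constitutively. The promoter that drives the transgene, the way the cells were isolated and the animals behind each library are not stated in the labels. The p-values below therefore measure only the spread between these 8 libraries, which may be technical.

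Cadherins are transmembrane proteins whose outer repeats bind calcium and, in the classical type I and type II families, bind the same or a related cadherin on the next cell, while the inner tail binds catenins that connect to actin. Protocadherins share the outer repeats but not the catenin-binding tail. The clustered protocadherins are made by joining a variable first exon, different for each isoform, to exons held in common by the Pcdha or the Pcdhg cluster, and each cell uses a few isoforms as an identity code best known from neurons. In mesenchymal cells, Cdh11 and Cdh2 are the usual classical cadherins, Cdh5 marks endothelium and Cdh1 marks epithelium.

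Libraries held 29926239 to 38954848 counts in the Fra-2 transgenic group and 31986025 to 41335957 in the control group. Fosl2 checks the labels. Fosl2 stood at 166, 134, 126 and 104 CPM (counts scaled to the same total per library, by TMM) in libraries labelled Fra-2 transgenic, against 105, 117, 141 and 119 CPM in control libraries. The groups overlap, and the log2 fold change was 0.14 ± 0.136 (SE, n = 4 each), with an adjusted p of 0.888 by edgeR's quasi-likelihood test and a two-sided exact permutation p of 0.457, where 0.0286 is the smallest that 4 against 4 libraries allow. The Fosl2 count did not set the labelled groups apart, whether reads of the transgene fall in this row is not stated, and every direction below is that of the libraries as labelled. Smooth muscle and myofibroblast markers were abundant in both groups: 12 such genes summed to 18769 to 21036 CPM in Fra-2 transgenic libraries and 18017 to 20180 CPM in control libraries, with Acta2 and Pdgfra among them. Of these 12, edgeR called Igf1 and Stc1 higher and Enpp2 lower, and DESeq2 also called Fgf18 higher. Over all genes tested, edgeR called 1.02% in either direction. Xist and Y-linked genes placed 2 female and 2 male libraries in each group.

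Of the 93 members, 68 passed the filter on low counts and were tested within a fit of 15422 genes. At an adjusted p under 0.05, 1 member was higher in libraries labelled Fra-2 transgenic (Cdh13) and 1 was lower (Pcdh15). Over all genes tested, 0.72% were called higher and 0.298% lower, 1.02% in either direction, against 2.94% of the tested members. With 1 gene in each direction, the members' share rests on these 2 genes alone. The log2 fold changes of the 68 tested members had a median of 0.04, with 39 above 0 and 29 below, beside a median of -0.01 over all genes tested. At an unadjusted p under 0.05 stood 15 of the 68 tested members, beside 8.71% of all genes tested.

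Cdh13 encodes T-cadherin, an atypical cadherin held at the cell surface by a lipid anchor in place of a transmembrane and catenin-binding tail, and known as a receptor for adiponectin in vascular cells. The gene (ENSMUSG00000031841) spans chromosome 8, 118283733 to 119324921 on GRCm38. Cdh13 was at 40.7, 32.4, 32.6 and 35.2 CPM in libraries labelled Fra-2 transgenic, against 10.6, 8.87, 13.6 and 13.1 CPM in control libraries. All 4 libraries labelled Fra-2 transgenic stood above all 4 control libraries, and the gap between the groups was wider than the range within either. The means were 35.3 ± 3.88 CPM and 11.5 ± 2.19 CPM (SD, n = 4 each), resting on 1017 to 1413 counts per Fra-2 transgenic library and 311 to 464 per control library. Cdh13 rose 3.06-fold (95% interval 2.42 to 3.86), a log2 fold change of 1.61 ± 0.157 (SE) with an adjusted p of 0.000140 by edgeR.

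Cdh13 is also expressed by endothelium, so endothelial markers belong beside it. The 12 endothelial markers summed to 399 to 576 CPM in Fra-2 transgenic libraries and 361 to 502 CPM in control libraries, 0 of the 12 passed the test by edgeR or DESeq2, 1 had an unadjusted p under 0.05 and none was at 0 in either group. Most of that sum was Cd34, which mesenchymal cells also express. Pecam1, an adhesion molecule of endothelial cells, averaged 14.6 ± 3.04 CPM in Fra-2 transgenic libraries and 13.0 ± 3.38 CPM in control libraries. Markers of matrix fibroblasts, a list chosen with earlier results of these data known, did set the groups apart. The 10 genes summed to 1651 to 2007 CPM in Fra-2 transgenic libraries and 1320 to 1576 CPM in control libraries, with all 10 detected. Of them, Dcn and Dpt were called higher by edgeR, which called 1.02% of all genes tested in either direction. DESeq2 added Itga8 and Lum and limma-voom added Itga8. The 9 pericyte markers summed to 1654 to 1978 CPM in Fra-2 transgenic libraries and 1907 to 2335 CPM in control libraries, with all 9 detected and 0 called by edgeR, 4 with an unadjusted p under 0.05, while DESeq2 called Rgs5 lower. Their part in the Cdh13 result was not tested. In such bulk libraries a change in the number of cells of a type and a change in RNA per cell cannot be told apart, which holds for every member below.

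T-cadherin's ligand and the classical adiponectin receptors were examined as a list of 4 genes. Of these, 3 were tested, 0 passed by edgeR or DESeq2 and 0 had an unadjusted p under 0.05, and the ligand gene Adipoq was at or near 0 in every library (at most 0.451 CPM). The highest in CPM was Hspa5, an endoplasmic reticulum chaperone also described as a surface partner of T-cadherin, at means of 1512 CPM in Fra-2 transgenic libraries and 1520 CPM in control libraries.

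**Figure D1:**
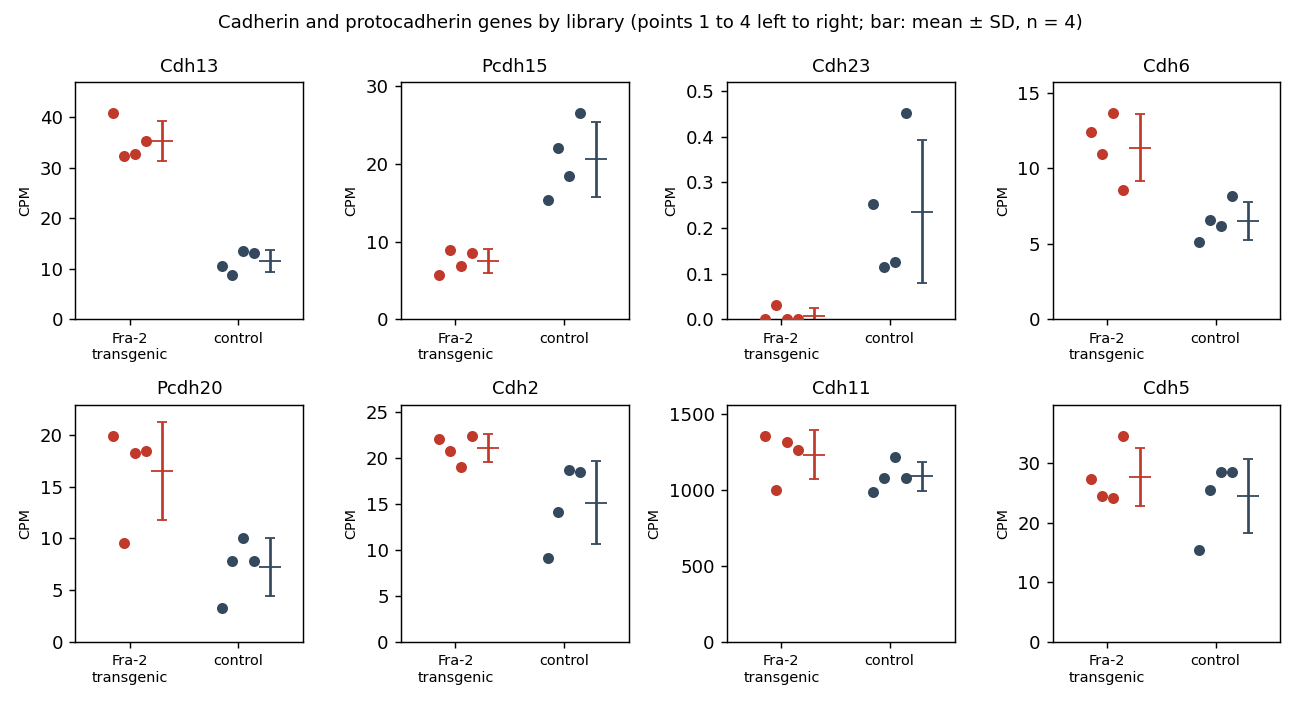
Expression in CPM (vertical axes) of cadherin and protocadherin genes on which the comparison turns, with libraries labelled Fra-2 transgenic left of control libraries. Each point is a library, 1 to 4 from left to right, and bars give the mean and SD of 4; Cdh13 stands at 32.4 to 40.7 CPM against 8.87 to 13.6 CPM, and Pcdh15 at 5.68 to 8.92 CPM against 15.4 to 26.5 CPM.

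Pcdh15 and Cdh23 encode the 2 large cadherins that join end to end as the tip link of sensory hair bundles in the inner ear, the filament that pulls on the mechanotransduction channel. Both genes lie on mouse chromosome 10, and both had lower counts in libraries labelled Fra-2 transgenic, though Cdh23 was too scarce to be tested. The 250 bases before the RefSeq start of each gene are shown (GRCm38.p6, sequence from RefSeq, 5′ to 3′ on the gene's strand). The window of Pcdh15 lies at chr10:73821617-73821866 on the plus strand and that of Cdh23 at chr10:60696491-60696740 on the minus strand. Capitals mark matches to an E2-box (CAGGTG or its complement CACCTG) and to a TATA box (TATAAA).
Pcdh15: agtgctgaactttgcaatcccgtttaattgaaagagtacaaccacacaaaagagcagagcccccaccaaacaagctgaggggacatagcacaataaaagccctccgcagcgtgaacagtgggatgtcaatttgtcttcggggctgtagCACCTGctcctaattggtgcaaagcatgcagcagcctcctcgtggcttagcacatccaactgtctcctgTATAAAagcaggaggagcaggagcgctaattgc
Cdh23: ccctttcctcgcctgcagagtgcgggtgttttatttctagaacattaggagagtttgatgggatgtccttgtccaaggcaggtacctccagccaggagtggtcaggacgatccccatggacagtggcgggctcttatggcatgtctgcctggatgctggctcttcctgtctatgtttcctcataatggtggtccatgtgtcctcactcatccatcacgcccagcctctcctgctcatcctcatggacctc
The Pcdh15 window holds CACCTG at 102 to 97 bases and TATAAA at 33 to 28 bases before the start, and the Cdh23 window holds neither. The RefSeq start of Pcdh15 lies inside the span of the GENCODE M21 gene, which begins further upstream at 73099342, so other start sites exist and which of them these cells use was not examined.

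Of the 92 distinct member symbols, 22 had at least 1 such window in the RefSeq table, 12 of them of tested genes, and Cdh13 had none. Each motif was searched on both strands, and the matches found in the Pcdh15 window do not overlap. An E2-box, the short motif that Snail and Zeb repressors bind in the Cdh1 promoter, was present for 2 of the 22 genes (9.09%), Cdh7 and Pcdh15, against 19.4% of 27025 genes. The TATA box letters, in either orientation and anywhere in the window, were present for 2 of 22 (9.09%), Pcdh15 and Pcdh8, against 14.3% of all genes. The AP-1 motif TGACTCA, searched also as its reverse complement, which Fra-2 dimers are known to bind, was present for 0 of the 22 genes, against 5.16% of all genes. Such matches describe these windows and no more.

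Pcdh15 (ENSMUSG00000052613, chromosome 10, 73099342 to 74649737 on GRCm38) was at 5.68, 8.92, 6.81 and 8.56 CPM in libraries labelled Fra-2 transgenic, against 15.4, 22, 18.4 and 26.5 CPM in control libraries. Every library labelled Fra-2 transgenic stood below every control library. The means were 7.49 ± 1.52 CPM and 20.6 ± 4.80 CPM (SD, n = 4 each), from 197 to 323 counts per Fra-2 transgenic library and 584 to 881 per control library. Pcdh15 fell with a log2 fold change of -1.46 ± 0.197 (SE) and an adjusted p of 0.00190 by edgeR, which puts the control level 2.75-fold above the Fra-2 transgenic level (95% interval 2.05 to 3.68).

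Cdh23 (ENSMUSG00000012819, chromosome 10, 60302748 to 60696490 on GRCm38) was too scarce for the test. It had 0, 1, 0 and 0 counts in libraries labelled Fra-2 transgenic, against 11, 4, 4 and 15 counts in control libraries. The groups do not overlap, but the whole Fra-2 transgenic group holds 1 count beside 34 in the control group. The ratio of control to Fra-2 transgenic, scaled for library size, was 32.1 with an exact 95% interval of 5.39 to 1305, which covers counting error only. With no filter on low counts, edgeR gave Cdh23 an adjusted p of 0.221.

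Other genes of the hair bundle were detected in part. Of 10 tip-link partner genes, which encode channel subunits, scaffold proteins and myosins of that apparatus, 4 passed the filter, 0 were called by edgeR or DESeq2 and 0 had an unadjusted p under 0.05. Tmc1, a pore-forming subunit of the channel, had 0 counts in all 8 libraries. Myo7a, the myosin that anchors the tip link from within, was the highest in CPM, at 10.2 ± 1.57 CPM in Fra-2 transgenic libraries and 8.88 ± 1.36 CPM in control libraries. Schwann cells and neurons also express long cadherin genes, and their markers stood low in both groups: 9 Schwann and neural crest markers summed to 14.4 to 22.5 CPM in Fra-2 transgenic libraries and 11.8 to 20.2 CPM in control libraries, 0 of the 4 tested were called by edgeR or DESeq2, and Sox10 was at or near 0 in every library. The 8 neuron markers summed to 6.84 to 11.8 CPM in Fra-2 transgenic libraries and 5.37 to 8.21 CPM in control libraries, with 0 of the 6 tested called by either tool. For both lists the groups overlap, and their part in the Pcdh15 result was not tested.

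Among the 5 classical type I cadherins, 4 were tested, 0 were called by edgeR, DESeq2 or limma-voom and 1 had an unadjusted p under 0.05, with a median log2 fold change of 0.45 beside -0.01 over all genes tested. Cdh2 encodes N-cadherin, the classical cadherin of mesenchymal and neural cells. Cdh2 was at 22.1, 20.8, 19.1 and 22.5 CPM in libraries labelled Fra-2 transgenic, against 9.11, 14.2, 18.8 and 18.5 CPM in control libraries. The groups do not overlap, but only narrowly, since control 3 and control 4 lie just under the lowest Fra-2 transgenic library. Over all genes tested, 3.35% stood with every Fra-2 transgenic library above every control library. The log2 fold change of Cdh2 was 0.48 ± 0.196 (SE, n = 4 each) and its adjusted p was 0.469 by edgeR, so the difference did not pass the test.

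Cdh4, which encodes R-cadherin, a type I cadherin first described in retina, was the type I gene with the highest level, also per length. Its level was 91.2, 166, 99.1 and 124 CPM in libraries labelled Fra-2 transgenic, against 177, 154, 178 and 109 CPM in control libraries. The libraries of each group spread over nearly the whole range of both, and the log2 fold change of -0.37 ± 0.194 (SE, n = 4 each) had an adjusted p of 0.678 by edgeR.

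Cdh1 and Cdh3 encode E-cadherin and P-cadherin, which hold epithelial cells together. Cdh1 was at 10.1, 8.95, 7.44 and 13.1 CPM in libraries labelled Fra-2 transgenic, against 2.52, 8.75, 8.40 and 10.1 CPM in control libraries. Cdh3 was at 5.56, 5.16, 8.26 and 5.49 CPM in libraries labelled Fra-2 transgenic, against 0.964, 2.31, 5.62 and 5.26 CPM in control libraries. For both genes the groups overlap and control 1 was the lowest of the 8 libraries. The log2 fold change was 0.42 for Cdh1 (adjusted p of 0.847 by edgeR) and 0.80 for Cdh3 (adjusted p of 0.686).

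Epithelial markers were present at a low level and were also lowest in control 1. The 13 markers summed to 132, 165, 165 and 251 CPM in Fra-2 transgenic libraries, against 72.0, 147, 155 and 157 CPM in control libraries, and edgeR called 0 of the 11 tested, 1 of which had an unadjusted p under 0.05, while DESeq2 called Sftpb higher. Sftpc, the surfactant protein of alveolar type II cells, led that sum at 63.5 ± 26.9 CPM in Fra-2 transgenic libraries and 44.6 ± 19.1 CPM in control libraries, while Epcam averaged 0.925 and 1.27 CPM. The 6 mesothelial markers summed to 7.20 to 14.0 CPM in Fra-2 transgenic libraries and 3.95 to 9.54 CPM in control libraries. Control 1 was again lowest. Of these markers, 5 were tested, 0 were called by edgeR or DESeq2 and 2 had an unadjusted p under 0.05. The part of epithelial or mesothelial cells in the levels of Cdh1 and Cdh3 was not tested. Of 9 genes for transcriptional repressors of E-cadherin, 8 were tested and 0 were called by edgeR, 1 with an unadjusted p under 0.05, while DESeq2 called Snai1 higher. The gene with the highest CPM, Zeb2, averaged 1299 CPM in Fra-2 transgenic libraries and 1168 CPM in control libraries (adjusted p of 0.776 by edgeR). Cdh15, the muscle cadherin, did not pass the filter, with at most 12 counts in a library.

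Of the 13 type II cadherins, 6 were tested, 0 were called by edgeR or limma-voom, 1 by DESeq2 (Cdh6) and 1 had an unadjusted p under 0.05, with a median log2 fold change of 0.18. Cdh11 encodes the mesenchymal cadherin known from osteoblasts and fibroblasts, and supplied 45.9% of the members' summed CPM in Fra-2 transgenic libraries and 44.1% in control libraries. Cdh11 was at 1360, 1002, 1316 and 1262 CPM in libraries labelled Fra-2 transgenic, against 987, 1078, 1222 and 1082 CPM in control libraries. The groups overlap, and the log2 fold change of 0.18 ± 0.112 (SE, n = 4 each) had an adjusted p of 0.755 by edgeR.

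Cdh6 encodes a type II cadherin of kidney and neural crest. It was at 12.4, 10.9, 13.6 and 8.53 CPM in libraries labelled Fra-2 transgenic, against 5.12, 6.56, 6.19 and 8.18 CPM in control libraries. The groups do not overlap, though Fra-2 transgenic 4 and control 4 lie close together. The fold was 1.75 (95% interval 1.30 to 2.34) with an adjusted p of 0.0828 by edgeR, short of the threshold. It passed without control 4 (adjusted p of 0.0463), with no filter on low counts (0.0432) and by DESeq2 (0.00767), and over all 19 alternatives its adjusted p ran from 0.00767 to 0.306.

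Cdh5 encodes VE-cadherin, the cadherin of endothelial junctions. It was at 27.3, 24.5, 24.3 and 34.7 CPM in libraries labelled Fra-2 transgenic, against 15.4, 25.5, 28.6 and 28.5 CPM in control libraries. The groups overlap and the adjusted p was 0.897 by edgeR, beside the endothelial marker sums given with Cdh13, none of whose 12 genes was called. Cdh24, a less studied type II cadherin, averaged 6.17 ± 0.738 CPM in Fra-2 transgenic libraries and 6.79 ± 2.19 CPM in control libraries and was not called. The other 2 tested type II genes, Cdh18 and Cdh22, averaged under 3 CPM in each group. The 7 type II genes that were not tested had at most 38 counts in any library, and Cdh9 had 0 in all 8.

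**Figure D2:**
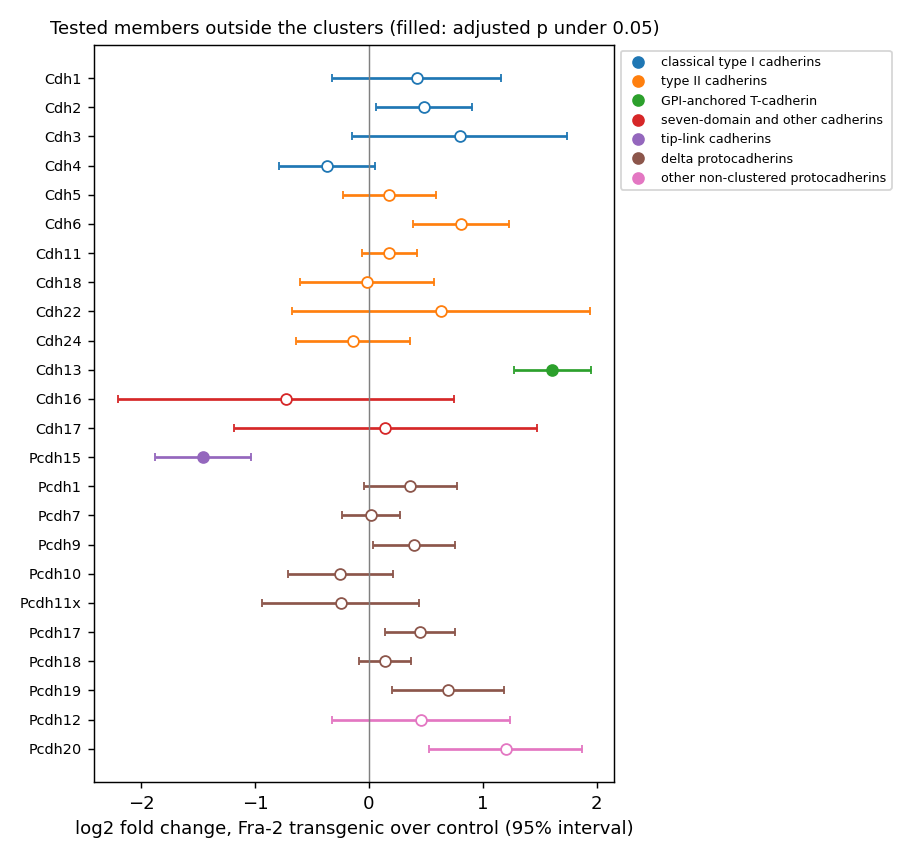
Log2 fold change (horizontal axis) of libraries labelled Fra-2 transgenic over control libraries for the 24 tested members outside the clusters, with 95% intervals from edgeR; filled points are those with an adjusted p under 0.05. Cdh13 at 1.61 and Pcdh15 at -1.46 are the filled points, and 16 of the other 22 lie above 0, beside 7377 of all 15422 genes tested.

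Delta protocadherins are single genes with long cytoplasmic tails that carry conserved motifs and steer cell migration and axon growth. Of the 9, 8 were tested, 0 were called by edgeR, DESeq2 or limma-voom and 3 had an unadjusted p under 0.05, 6 with a log2 fold change above 0 and 2 below, and a median of 0.25. Pcdh17 had the smallest adjusted p among them. It was at 54.3, 85.8, 62.6 and 69.6 CPM in libraries labelled Fra-2 transgenic, against 54.2, 42, 56.7 and 47.1 CPM in control libraries. Fra-2 transgenic 1 lies among the control libraries, and the log2 fold change of 0.45 ± 0.144 (SE, n = 4 each) had an adjusted p of 0.253 by edgeR.

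Pcdh19, an X-linked gene whose human counterpart is mutated in an epilepsy of girls, was at 7.70, 5.22, 7.18 and 8.80 CPM in libraries labelled Fra-2 transgenic, against 4.89, 5.70, 3.57 and 3.67 CPM in control libraries. Fra-2 transgenic 2 falls within the control range, and the log2 fold change of 0.70 had an adjusted p of 0.262 by edgeR. Pcdh9 averaged 21.7 ± 2.85 CPM in Fra-2 transgenic libraries and 16.5 ± 3.51 CPM in control libraries (adjusted p of 0.510). Pcdh1, which is expressed in airway epithelium and has been linked to bronchial hyperresponsiveness in human studies, averaged 32.9 ± 2.65 CPM in Fra-2 transgenic libraries and 25.6 ± 7.30 CPM in control libraries, control 1 again being lowest at 14.9 CPM. Its adjusted p was 0.662 by edgeR.

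The delta protocadherins with the highest level per length were Pcdh18 and Pcdh7. Pcdh7 was at 227, 157, 195 and 209 CPM in libraries labelled Fra-2 transgenic, against 181, 220, 182 and 195 CPM in control libraries, a log2 fold change of 0.02 ± 0.118 (SE). Pcdh18 was at 162, 173, 164 and 188 CPM in libraries labelled Fra-2 transgenic, against 131, 155, 176 and 161 CPM in control libraries, a log2 fold change of 0.14 ± 0.106 (SE). In both genes the groups overlap. Annotated exons of Pcdh7 overlap an antisense gene over 21.1% of their length, and no source used here says that counting used the strand. That antisense gene had at most 22 counts in a library, which does not show whether reads on the overlap were dropped from both genes. Pcdh10, a delta protocadherin known for binding actin regulators, averaged 5.66 CPM in Fra-2 transgenic libraries and 6.73 CPM in control libraries and was not called.

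Pcdh20 and Pcdh12 are single protocadherin genes outside the delta group, and Pcdh12 is known from endothelium. Pcdh20 was at 20, 9.55, 18.2 and 18.5 CPM in libraries labelled Fra-2 transgenic, against 3.30, 7.78, 10 and 7.82 CPM in control libraries. Fra-2 transgenic 2 lies within the control range, while the other 3 lie well above it. The log2 fold change was 1.20 ± 0.308 (SE, n = 4 each), a fold of 2.30 (95% interval 1.44 to 3.66), with an adjusted p of 0.120 by edgeR. Without Fra-2 transgenic 2 it was 1.39 with an adjusted p of 0.0317, DESeq2 on all 8 libraries gave 0.00329, and over 19 alternatives the adjusted p ran from 0.00329 to 0.323. Pcdh12 averaged 2.16 CPM in Fra-2 transgenic libraries and 1.58 CPM in control libraries, with no call.

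Over all 24 tested members outside the clusters, 17 had a log2 fold change above 0 and 7 below, with a median of 0.27. Of the 22 that were not called, 16 were above 0. Over all genes tested, 7377 of 15422 were above 0. Control 1 was the lowest library for several of these members, among them Cdh1, Cdh2, Cdh3, Cdh5, Pcdh1 and Pcdh20, but not for others such as Cdh4 and Pcdh17. These signs are therefore not counts of independent genes. Groups that do not overlap were found for Cdh13, Cdh6, Cdh2 and the clustered Pcdhga1 on the higher side, 4 of 68 tested members beside 3.35% of all genes tested. On the lower side they were found for Pcdh15 and the clustered Pcdhb15 and Pcdhb3, 3 of 68 beside 2.42% of all genes tested.

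The clustered protocadherins needed care with shared exons. In the GENCODE M21 annotation, 38% to 54.9% of the exon bases of each Pcdha gene and 27.8% to 66.8% of those of each Pcdhg gene also belong to another member, while Pcdhb genes have a complete coding exon of their own and share at most 9.67%, between Pcdhb21 and Pcdhb22. No member outside the clusters shares exon bases with another. Of the exon bases of Pcdhb12, 63.5% lie under the antisense gene Gm37446, which is not a member and had at most 32 counts in a library. That low count likewise does not show whether reads on the overlap were dropped from both genes. The counts show that reads on the shared exons were not given to every gene that holds them. Pcdha4 and Pcdhga10 had 0 counts in all 8 libraries although their neighbours with the same exons were counted. Their own exons are also overlapped by genes that are not members: none of the bases of Pcdhga10 is its alone, its variable part lying under Gm26672 on the other strand, and 404 of the 5768 exon bases of Pcdha4 are its alone, beside Gm38225 and Gm42416. Whether shared reads were dropped, or given to a single gene, is not stated in the sources used here, and counts of Pcdha and Pcdhg isoforms are therefore uncertain. The 4 read-through genes annotated over the Pcdhg cluster, Gm37013, Gm37388, Gm38182 and Gm42416, held 0 counts in all libraries.

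Of the 58 clustered members, 44 were tested and 0 were called by edgeR, 7 had an unadjusted p under 0.05, DESeq2 and limma-voom called 0, and the smallest adjusted p was 0.398. Their log2 fold changes ran from -0.83 to 0.72, 22 above 0 and 22 below. The highest was that of Pcdhgb8, which GENCODE M21 annotates as a polymorphic pseudogene and which averaged 2.33 CPM over all 8 libraries. The 21 tested Pcdhb genes had 5 above 0 and 16 below, with a median of -0.05, and the 21 tested Pcdhg genes had 16 above 0 and 5 below, with a median of 0.14. Genes of a cluster share regulatory elements and, for Pcdhg, exons, so these counts of signs are not counts of independent genes.

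**Figure D3:**
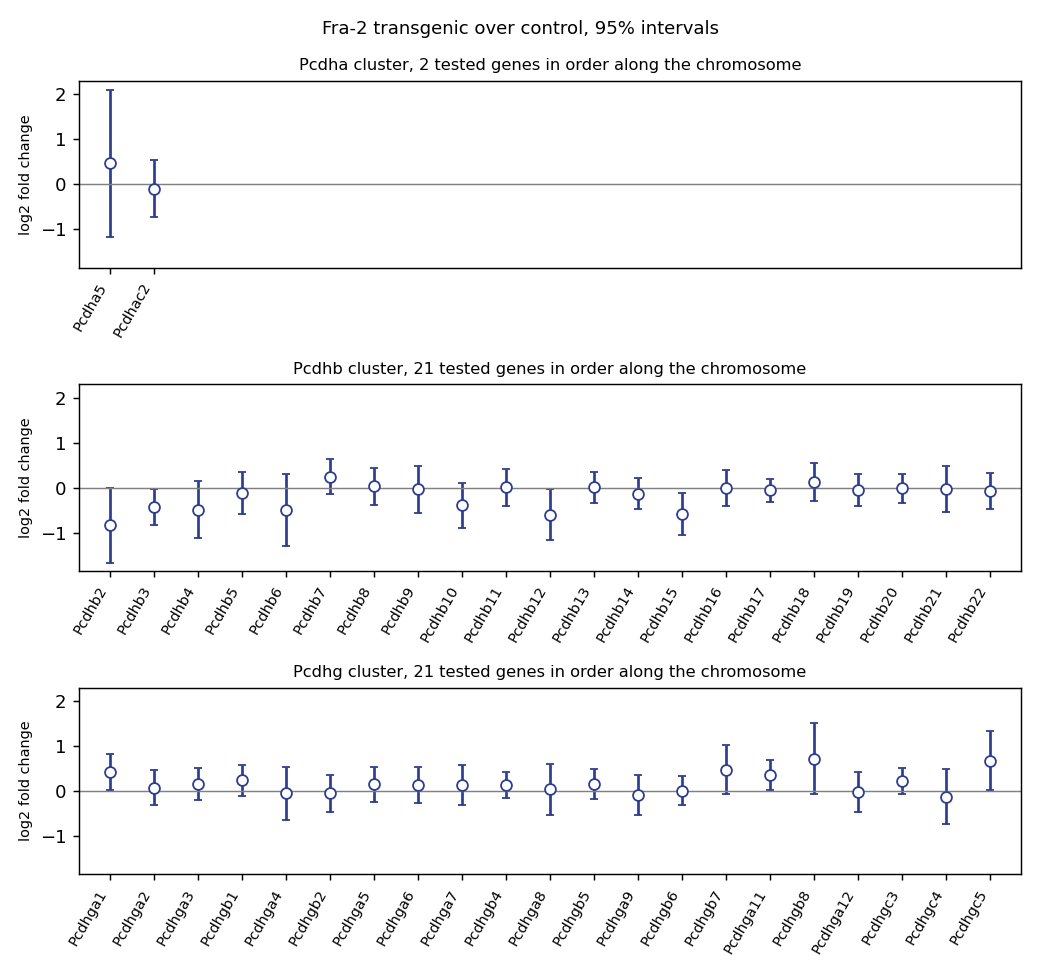
Log2 fold change (vertical axis) of libraries labelled Fra-2 transgenic over control libraries for the tested clustered protocadherins, in their order along chromosome 18 (horizontal axis), with 95% intervals from edgeR. No gene has an adjusted p under 0.05; the points run from -0.83 to 0.72, with 16 of 21 Pcdhb genes below 0 and 16 of 21 Pcdhg genes above 0.

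The Pcdha cluster held few counts, which may leave out reads on its shared exons. Summed over its 14 genes, it stood at 3.66, 2.01, 3.91 and 5.14 CPM in libraries labelled Fra-2 transgenic, against 3.30, 4.36, 4.04 and 3.40 CPM in control libraries. The control libraries lie within the Fra-2 transgenic range. Pcdhac2, the isoform nearest the shared exons, held most of it, at 2.64 ± 0.840 CPM in Fra-2 transgenic libraries and 2.84 ± 0.501 CPM in control libraries (adjusted p of 0.971 by edgeR). Pcdha5 was the only other tested gene, and 12 of the 14 did not pass the filter.

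The Pcdhb cluster summed to 330, 289, 345 and 350 CPM in libraries labelled Fra-2 transgenic, against 278, 350, 338 and 420 CPM in control libraries. The groups overlap. Pcdhb17, its gene with the highest CPM over all 8 libraries and the highest level per length in each group, was at 62.4, 52.1, 63.6 and 65.4 CPM in libraries labelled Fra-2 transgenic, against 53.5, 64.1, 61.7 and 73.4 CPM in control libraries (adjusted p of 0.958 by edgeR). Pcdhb22 averaged 60.5 ± 3.13 CPM in Fra-2 transgenic libraries and 63.2 ± 22.3 CPM in control libraries, where control 4 alone reached 95.8 CPM and the mean was level with that of Pcdhb17. Pcdhb16 averaged 54.8 ± 11 CPM and 55.2 ± 13.4 CPM in the same order of groups. These 3 genes had log2 fold changes between -0.06 and -0.01.

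The lower-side Pcdhb genes were scarce ones. Pcdhb15 was at 3.06, 3.31, 3.94 and 3.45 CPM in libraries labelled Fra-2 transgenic, against 3.99, 5.85, 5.37 and 5.29 CPM in control libraries. Pcdhb3 was at 4.64, 5.76, 6.18 and 5.46 CPM in libraries labelled Fra-2 transgenic, against 6.82, 6.64, 7.90 and 8.27 CPM in control libraries. In both genes every library labelled Fra-2 transgenic was below every control library, by a margin of under 0.5 CPM. The log2 fold change was -0.57 for Pcdhb15 (adjusted p of 0.398 by edgeR) and -0.43 for Pcdhb3 (adjusted p of 0.511), so neither passed. The remaining Pcdhb genes that averaged 5 CPM or more (Pcdhb4, Pcdhb5, Pcdhb7, Pcdhb8, Pcdhb11, Pcdhb13, Pcdhb14, Pcdhb18, Pcdhb19, Pcdhb20 and Pcdhb21) had log2 fold changes from -0.49 (Pcdhb4) to 0.25 (Pcdhb7), and 0 were called.

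The Pcdhg cluster summed to 378, 330, 344 and 354 CPM in libraries labelled Fra-2 transgenic, against 261, 301, 334 and 350 CPM in control libraries. Control 3 and control 4 lie within the range of the Fra-2 transgenic libraries and control 1 and control 2 below it. Pcdhgc3, a C-type isoform that is used broadly rather than chosen cell by cell, was the clustered gene with the highest level, at 104, 95.4, 101 and 116 CPM in libraries labelled Fra-2 transgenic, against 67.6, 80.9, 104 and 105 CPM in control libraries. The groups overlap, and the log2 fold change of 0.22 ± 0.136 (SE, n = 4 each) had an adjusted p of 0.733 by edgeR.

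Pcdhga1, the first isoform of the cluster, was at 8.33, 8.25, 9.48 and 8.27 CPM in libraries labelled Fra-2 transgenic, against 5.55, 4.93, 7.64 and 7.31 CPM in control libraries. The groups do not overlap, and the log2 fold change of 0.43 had an adjusted p of 0.520 by edgeR. The other Pcdhg genes that averaged 5 CPM or more were Pcdhga2, Pcdhga3, Pcdhga5, Pcdhga6, Pcdhga7, Pcdhga9, Pcdhga11, Pcdhga12, Pcdhgb1, Pcdhgb2, Pcdhgb4, Pcdhgb5, Pcdhgb6, Pcdhgb7 and Pcdhgc4. Their log2 fold changes ran from -0.12 (Pcdhgc4) to 0.48 (Pcdhgb7), and 0 were called.

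**Figure D4:**
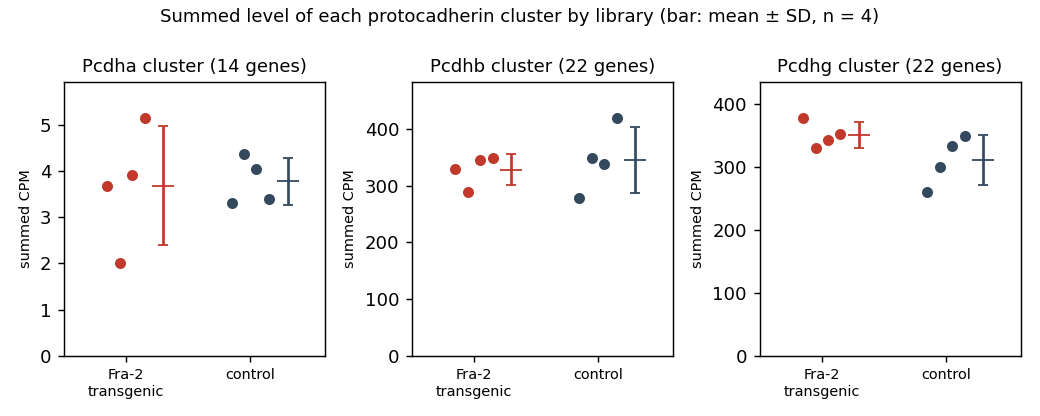
Summed CPM (vertical axis) of the Pcdha, Pcdhb and Pcdhg clusters by library, libraries labelled Fra-2 transgenic left of control libraries, with the mean and SD of 4. The Pcdha sum stays under 6 CPM in every library, and for each cluster the ranges of the groups overlap (Pcdhb 289 to 350 against 278 to 420 CPM, Pcdhg 330 to 378 against 261 to 350 CPM).

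Other genes act on the choice and insulation of these promoters: of 12 regulators, among them cohesin subunits, Ctcf and Smchd1, all were tested, 0 were called by edgeR or DESeq2 and 0 had an unadjusted p under 0.05, and the gene with the highest CPM, the cohesin gene Smc1a, averaged 499 CPM in Fra-2 transgenic libraries and 509 CPM in control libraries. Of 14 genes for proteins that act below protocadherins, such as kinases and the actin-regulating WAVE complex, all were tested, 0 were called by edgeR or DESeq2 and 0 had an unadjusted p under 0.05. Wasf2 led that list at 270 CPM in Fra-2 transgenic libraries and 264 CPM in control libraries.

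Levels of different genes were compared as CPM per kilobase of exon that no other member shares. On this scale Cdh11 stood first in both groups, at 139 in Fra-2 transgenic libraries and 123 in control libraries. Pcdh18 followed at 32.0 and 29.1, Pcdhgc3 at 30.8 and 26.4, Pcdh7 at 18.6 and 18.3 and Cdh4 at 16.5 and 21.3, in the same order of groups. Cdh13 stood at rank 26 of the 93 members in Fra-2 transgenic libraries and at rank 52 in control libraries, the widest move of any tested member. Pcdh20 stood at rank 29 in Fra-2 transgenic libraries and at rank 51 in control libraries, and Pcdh15 at rank 63 and rank 55. Pcdhgc3 may or may not have received reads of the shared exons, and 39.8% of its exon bases also overlap genes that are not members, among them the antisense gene BC037039, which leaves 1821 of its 3380 unshared bases to it alone. Its place in the order is therefore uncertain. The same holds for Pcdh7 beside Cdh4, since the level of Pcdh7 was divided by 10604 exon bases, of which 8369 are its alone.

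**Figure D5:**
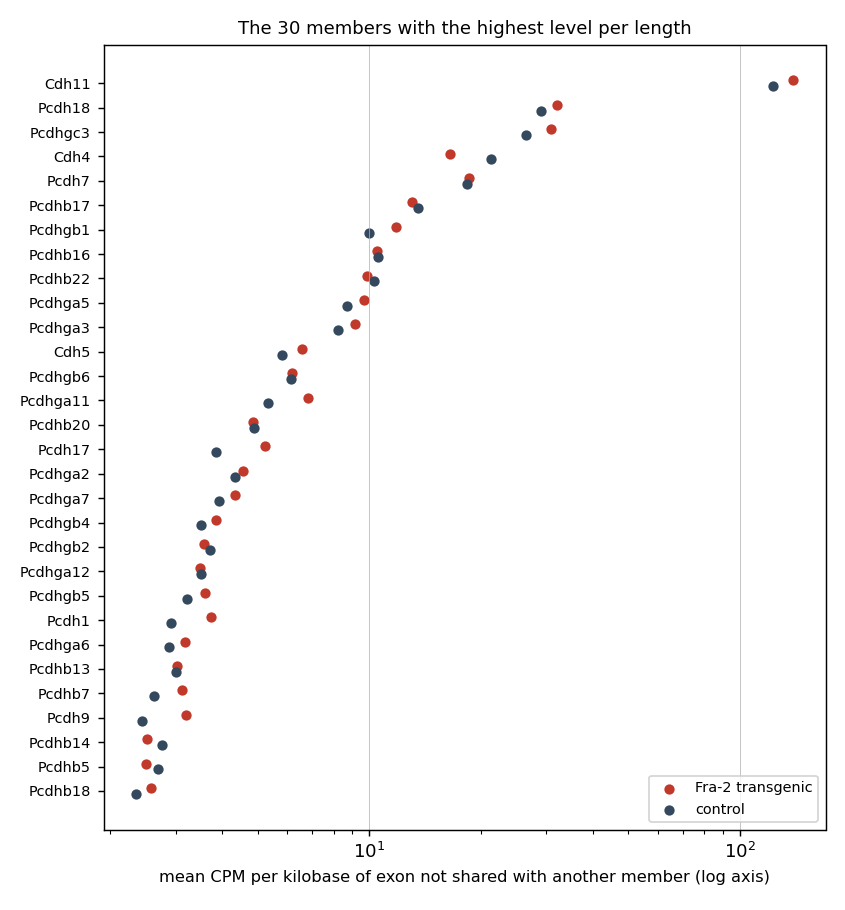
Mean level per length (CPM per kilobase of exon not shared with another member, log axis) of the most abundant members, libraries labelled Fra-2 transgenic set beside control libraries. Cdh11 stands first in both groups at 139 and 123, more than any other member shown.

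Cadherins act with partner proteins at the junction. Catenins connect the classical cadherin tail to actin: of 13 catenin and related armadillo genes, 10 were tested, 0 were called by edgeR or DESeq2 and 1 had an unadjusted p under 0.05, and the gene with the highest CPM, Ctnnb1 (beta-catenin), averaged 441 CPM in Fra-2 transgenic libraries and 456 CPM in control libraries. Of 16 further junction genes, such as nectins and actin-binding adaptors, all were tested, 0 were called by either tool and 2 had an unadjusted p under 0.05, led by Lima1 at 459 CPM in Fra-2 transgenic libraries and 451 CPM in control libraries. Of 12 genes for enzymes that cut or mature cadherins, all were tested, 0 were called by either tool and 1 had an unadjusted p under 0.05, led by the convertase gene Pcsk5 at 228 CPM in Fra-2 transgenic libraries and 229 CPM in control libraries.

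The wider cadherin superfamily, with the giant Fat and Dachsous cadherins, the flamingo-like Celsr genes, calsyntenins and desmosomal cadherins, was taken as a list of 25 genes outside the members. Of these, 13 were tested, 0 were called higher and 1 was called lower. That gene was Fat3, a giant atypical cadherin known for shaping neurons of the retina. It was at 91.3, 75.2, 92.6 and 101 CPM in libraries labelled Fra-2 transgenic, against 168, 141, 117 and 120 CPM in control libraries. Every library labelled Fra-2 transgenic stood below every control library, and Fat3 fell with a log2 fold change of -0.60 ± 0.130 (SE, n = 4 each) and an adjusted p of 0.0439 by edgeR. The call held in 10 of 19 alternatives, with adjusted p from 0.00248 to 0.155, and was lost by limma-voom, with sex as a covariate, without robust dispersion and without any of Fra-2 transgenic 1, 2 or 3 (0.155, 0.0769 and 0.128) or control 1, 2 or 3 (0.101, 0.152 and 0.0525). Fat1, the highest of the list in CPM, averaged 673 ± 73.7 CPM in Fra-2 transgenic libraries and 692 ± 11.6 CPM in control libraries, with no call. The desmosomal cadherin genes in the list did not pass the filter.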

How the data were processed

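Per the labels' protocols, libraries were made with Nextera XT from amplified cDNA (Ovation RNA-Seq System V2), starting from bead-purified mRNA in 50 ng of RNA. The authors deposited raw counts per Ensembl gene, 1 column per library. The submitters' processing notes name GRCh38, a human build, whereas the table holds mouse identifiers. How reads were aligned and counted is not given in the sources used here. Symbols and coordinates came from GENCODE M21 (GRCm38) and matched 42462 of 43432 identifiers, the others holding 0.0892% of counts. In GENCODE M21, 2 identifiers carry the symbol Pcdha11, and both were kept.

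The deposited counts were analysed unchanged with edgeR 4.0.16 (R 4.3.3): filterByExpr (minimum count 10, total 15), TMM scaling, a robust quasi-likelihood fit of 4 against 4 libraries without covariates, and two-sided tests with Benjamini-Hochberg adjustment over 15422 genes at 0.05. A standard error is the absolute log2 fold change over the square root of F. CPM used TMM-scaled totals. Pairs of libraries of a group differed by 36.0 to 155 in chi-square per gene, far above counting noise, and all 8 were kept. Total counts of 29926239 to 41335957 set the counting error.

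The members and all gene lists were chosen with earlier results of these data known. The text names Cdh1, Cdh2, Cdh5, Cdh11, Cdh13, Cdh23, Pcdh15, every called member, every member with a mean of at least 5 CPM, the leading gene of each cluster, and the called and most abundant gene of each partner list; others were named after their values were seen. Cluster sums were not tested. Alternatives were scaling by RLE, by upper quartiles or by totals alone, 2 other filters, DESeq2 1.42.0, limma-voom (limma 3.58.1), no robust dispersion, the replicate number as a block, sex as a covariate, each library left out, an adjusted p of 0.10, and each cluster summed into 1 row. Counts were simulated for 15422 genes, with the changed genes drawn from those with a mean of at least 1 CPM. The procedure recovered 30% of 50 genes changed 1.5-fold, 64% of those changed 2-fold, 96% of those changed 4-fold and 98% of those changed 8-fold, with 10 false among 154 calls. Recovery of scarcer genes was not simulated.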

Additional observations from a re-analysis of the deposited data

Results flagged for a closer look

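Over 108 sets of 4 libraries (each named gene or cluster sum in each group), 8 had a library set apart from the other 3 by more than Dixon's 95% critical ratio, which chance alone gives for about 1 in 20 sets. For Pcdh20, Fra-2 transgenic 2 was low at 9.55 CPM, while the other 3 were at 18.2 to 20. For Cdh23, Fra-2 transgenic 2 held the only count of its group (0.0318 CPM), and a lone count among values of 0 is always flagged. For Pcdhga1, Fra-2 transgenic 3 was high at 9.48 CPM, beside 8.25 to 8.33. Control 1 was low for Pcdhb4 at 4.36 CPM (others 8.78 to 9.60), for Pcdhb19 at 12.6 CPM (18.1 to 19.1) and for Pcdhb20 at 12.7 CPM (18.5 to 19.6). Control 4 was high for Pcdhb13 at 13.5 CPM (10.1 to 10.6) and for Pcdhga2 at 15.5 CPM (9.20 to 10.1).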

How the results depend on the processing

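Cdh13 was called higher and Pcdh15 lower in all 19 alternatives that test them, with log2 fold changes of 1.51 to 1.70 and -1.57 to -1.31. The number of members called higher was 2 with no filter on low counts (Cdh6 added), 3 by DESeq2 (Cdh6 and Pcdh20 added) and 2 at an adjusted p under 0.10 (Cdh6 added), and 1 to 2 with a library left out. The number called lower was 1 in every alternative run. Over all genes, edgeR called 111 higher and 46 lower, DESeq2 272 and 97, no filter 139 and 67, and fits without a library 50 to 153 and 22 to 52. Replicate numbers are shared between groups, and the labels do not say whether they mark pairs. The deviations of same-numbered libraries from their group means had correlations of 0.00177, 0.219, 0.0797 and 0.310 for numbers 1 to 4. Of the 8 libraries, 5 correlated best with their own number. These values do not settle whether the numbers are pairs, and the main fit did not use them. With replicate number as a block, 137 genes were called higher and 53 lower, and among the members 1 and 1, Cdh13 (log2 fold change 1.62) and Pcdh15 (-1.45). Log2 ratios of the cluster sums moved by less than the spread between libraries in every alternative run. Depth limited members under about 10 counts, and by the simulation most changes of 1.5-fold would be missed.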
